A study of Mus musculus with 28 samples.

Results

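Hcar2, Gpr84, Ffar2 and Sucnr1 are genes of metabolite-sensing receptors that were examined in murine bone marrow-derived macrophages (BMDMs), 4 genes of the 54532 in the count table. They were chosen by the effect of von Willebrand factor (VWF) on Hcar2, which fell more between the early and the late time than that of any other gene tested, so the VWF values of these genes are a description and carry no test. Bulk RNA sequencing was done on 28 cultures. At each of 3.5 h and 16 h there were 5 control cultures given PBS, 5 cultures given plasma-derived VWF at 10 µg/ml and 4 cultures given bacterial lipopolysaccharide (LPS) at 100 ng/ml. All cultures had been grown with M-CSF and received fresh medium with calcium chloride at the start of treatment. The labels give no genotype, strain or age, and the study's methods name young adult C57/B6JB mice as the source of the marrow. A control of plasma protein other than VWF was not analysed here.

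Each of the 4 genes encodes a G protein-coupled receptor for a small product of metabolism. Hcar2 is the receptor for the ketone body β-hydroxybutyrate and for niacin, and Gpr84 responds to medium-chain fatty acids. Ffar2 responds to short-chain fatty acids such as acetate, and Sucnr1 to succinate. These receptors couple to inhibitory G proteins, which lower cAMP, and Ffar2 and Sucnr1 can also couple to other G proteins. In macrophages and neutrophils Hcar2 and Gpr84 are known as genes that respond to inflammatory stimuli.

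The genes lie on 4 different chromosomes of GRCm38. Hcar2 (ENSMUSG00000045502) is a gene of 1 exon on the minus strand of chromosome 5, from 123863570 to 123865499. Gpr84 (ENSMUSG00000063234) has 2 exons on the minus strand of chromosome 15, from 103308235 to 103310612. Ffar2 (ENSMUSG00000051314) lies on the minus strand of chromosome 7, from 30818348 to 30823775, and Sucnr1 (ENSMUSG00000027762) on the plus strand of chromosome 3, from 60081869 to 60087566. No 100-base stretch of the Hcar2, Ffar2 or Sucnr1 transcripts occurs in another gene. An antisense gene, Gm49482, overlaps 39.5% of the exon length of Gpr84. The strand setting of the counting is not given in the sources used here, so reads of the pair cannot be told apart, but Gm49482 itself was given 1 read in all 28 cultures together.

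Total counts per culture lay between 41131209 and 77699206, with a median of 52986574, and levels are given as CPM, the counts of a gene relative to its library size as scaled by TMM factors. All 9 macrophage markers were detected in every group. Control 16 h replicate 5 stood apart from its group, with a root-mean-square deviation of 0.83 on the log2 scale against a group median of 0.274, and its macrophage markers summed to 6615 CPM against a group median of 15110. LPS 16 h replicate 4 also stood apart, at 0.607 against a group median of 0.340. Group means and log2 differences of Hcar2, Gpr84 and Ffar2 that rest on either culture are given with it, and the main ones also without it. In bulk RNA, fewer cells that express a gene and less RNA per cell cannot be told apart.

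Hcar2 was at a low level in control cultures at 3.5 h and was high in VWF-treated and LPS-treated cultures. The control cultures at 3.5 h held 1.09, 1.44, 0.812, 2.16 and 0.522 CPM, from 25 to 161 reads. The VWF cultures at 3.5 h held 36.1, 36.9, 46.5, 57.9 and 61.6 CPM, and the LPS cultures 22.8, 41.9, 42.6 and 56.7 CPM. Every treated culture at 3.5 h lay above every control culture, while the VWF and LPS cultures overlapped.

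At 16 h the 2 treatments lay at opposite ends. The LPS cultures held 76.2, 58.1, 44.4 and 24.8 CPM of Hcar2, the lowest of them in the culture that stood apart. The VWF cultures held 0.330, 0.213, 0.302, 0.0710 and 0.384 CPM, from 4 to 21 reads. Of the control cultures at 16 h, 4 held 3.88, 4.28, 2.77 and 3.40 CPM and replicate 5 held 0.232 CPM, or 12 reads. The VWF cultures thus lay below those 4 control cultures and overlapped the group only through the culture that stood apart. Without it the control mean was 3.58 ± 0.651 CPM (SD, n = 4), and with it 2.91 ± 1.60 (n = 5).

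Ordered by mean, Hcar2 was lowest in VWF cultures at 16 h (0.260 ± 0.123 CPM, SD, n = 5), followed by controls at 3.5 h (1.20 ± 0.631) and controls at 16 h. The groups LPS at 3.5 h (41.01 ± 13.9, n = 4), VWF at 3.5 h (47.8 ± 11.7, n = 5) and LPS at 16 h (50.8 ± 21.7, n = 4) followed far above, the last at 59.5 ± 15.95 (n = 3) without LPS 16 h replicate 4. The 3 high groups overlapped one another, as did the controls at the 2 times. VWF at 16 h did not overlap controls at 3.5 h, and controls at 16 h did not overlap LPS at 3.5 h.

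**Figure D1:**
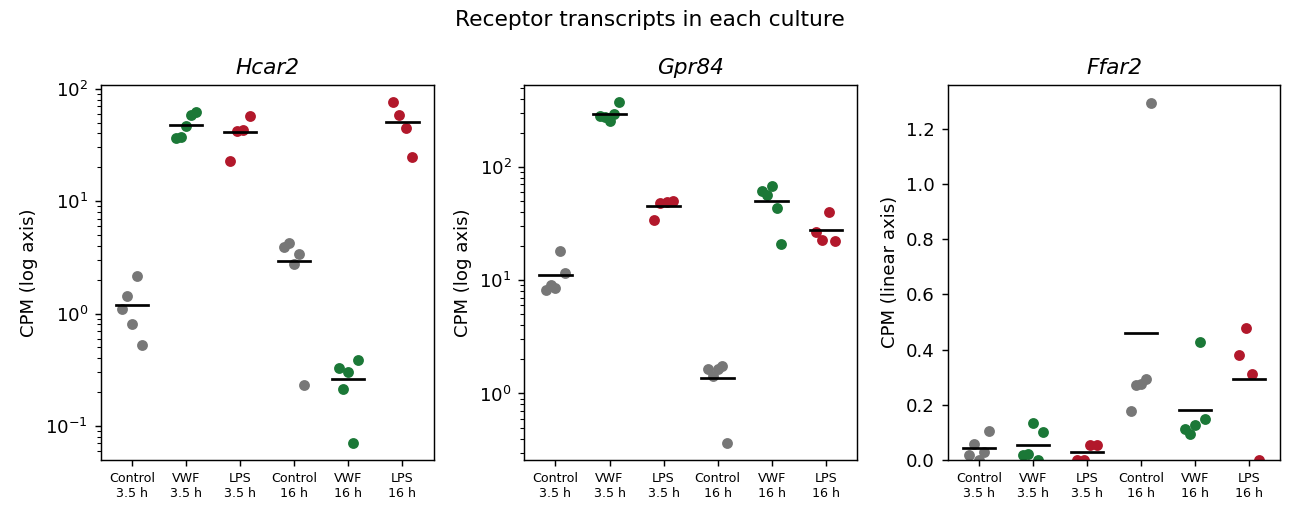
CPM of Hcar2, Gpr84 (log axes) and Ffar2 (linear axis) in each culture of the 6 groups, with a point per culture and a bar at the group mean. Hcar2 in the 5 VWF cultures at 16 h lies between 0.0710 and 0.384 CPM, whereas the LPS cultures at 16 h lie between 24.8 and 76.2, and Gpr84 in the VWF cultures at 3.5 h lies between 254 and 374, above all other cultures.

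Gpr84 was the most abundant of the 4 receptors in VWF cultures and was high in them at both times. At 3.5 h the VWF cultures held 279, 276, 254, 294 and 374 CPM, the LPS cultures 33.7, 48.3, 49.1 and 50.0, and the control cultures 8.13, 9.05, 8.60, 18.3 and 11.6. These 3 groups did not overlap one another. At 16 h the VWF cultures held 61.5, 56.6, 67.1, 43.4 and 20.97 CPM, the LPS cultures 26.5, 22.7, 40.0 and 22.0, and the control cultures 1.66, 1.43, 1.66, 1.76 and 0.367. Both treated groups lay above every control culture at 16 h, and they overlapped each other.

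The order of Gpr84 means differed from that of Hcar2. Controls at 16 h were lowest (1.38 ± 0.576 CPM, SD, n = 5), then controls at 3.5 h (11.1 ± 4.21), LPS at 16 h (27.8 ± 8.37, n = 4), LPS at 3.5 h (45.3 ± 7.73), VWF at 16 h (49.9 ± 18.4, n = 5) and VWF at 3.5 h (295 ± 46.1). The 2 LPS groups overlapped, LPS at 3.5 h overlapped VWF at 16 h, and the other neighbours in this order did not overlap. Gpr84 was lower in control cultures at 16 h than at 3.5 h (log2 -3.01, SE 0.400), the 17th lowest of 8333 genes tested for that comparison, without overlap of the groups. Hcar2 in the same control cultures was higher at 16 h by 1.23 (SE 0.589). Without Control 16 h replicate 5 the differences were -2.77 for Gpr84 and 1.52 for Hcar2, the Hcar2 groups did not overlap either, and the Gpr84 mean at 16 h was 1.63 ± 0.137 CPM (n = 4).

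Ffar2 was near the limit of detection at 3.5 h, with at most 8 reads in any culture. At 16 h the control cultures held 13, 23, 16, 18 and 67 reads, the VWF cultures 7, 8, 8, 24 and 8, and the LPS cultures 17, 25, 13 and 0. The highest value, 1.30 CPM, was in Control 16 h replicate 5 and the 0 was in LPS 16 h replicate 4, the 2 cultures that stood apart. Every control culture at 16 h lay above every control culture at 3.5 h. The groups at 16 h overlapped, but without the 2 cultures that stood apart the LPS cultures, at 0.312 to 0.480 CPM, lay above the control cultures, at 0.175 to 0.293 CPM. No culture reached 10 TPM for Ffar2, the level a gene had to reach to be tested.

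Sucnr1 was not detectable in most cultures. It had 0 reads in all 10 control and VWF cultures at 3.5 h, where 3 reads over a group would be 0.0101 and 0.0107 CPM. In the other groups it had 1 read in LPS at 3.5 h, 1 in control at 16 h, 3 in VWF at 16 h and 5 in LPS at 16 h, with at most 4 in a culture. No fold was computed for it.

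LPS against control answers whether the receptors respond to a bacterial stimulus. The LPS cultures were not used to choose the genes, but the control cultures were. Genes were tested with edgeR's quasi-likelihood test if they reached 10 TPM in at least 1 culture compared, and a call needed an adjusted p under 0.05 (Benjamini-Hochberg) with a log2 fold change of 1 or more in size. With LPS at 3.5 h, Hcar2 rose 34.1-fold (log2 5.09, SE 0.381, edgeR adjusted p = 4.86e-07) and Gpr84 4.14-fold (log2 2.05, SE 0.230, edgeR adjusted p = 1.43e-05). Of the 8190 genes tested, 12.8% were called higher and 11.8% lower. Hcar2 reached 10 TPM only in LPS cultures (at most 4.02 TPM in a control culture and 57.9 TPM with LPS), so that it was tested at all depended on its level with LPS, and nothing is read from the number of members called. In a fit without the level filter Hcar2 was at log2 5.14 (edgeR adjusted p = 2.98e-05).

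With LPS at 16 h Hcar2 rose 17.8-fold (log2 4.15, SE 0.654, edgeR adjusted p = 0.000475) and Gpr84 20.7-fold (log2 4.37, SE 0.418, edgeR adjusted p = 1.75e-05). Of the 7994 genes tested, 15.3% were called higher and 12.4% lower. Both genes reached 10 TPM only in LPS cultures, with at most 7.07 TPM of Hcar2 and 3.23 TPM of Gpr84 in a control culture, so nothing is read from their number here either. In a fit without the filter they were at log2 4.24 and 4.46 (edgeR adjusted p = 0.000639 and 3.78e-06). Without the 2 cultures that stood apart, Hcar2 was higher by 4.08 and Gpr84 by 4.23 on the log2 scale, with edgeR adjusted p values of 1.00e-07 and 8.39e-08. Ffar2 was not called with LPS at either time in a fit without the level filter (log2 -0.51, SE 1.30, and -0.49, SE 0.870). Its sign at 16 h changed without Control 16 h replicate 5 (log2 0.30), and without both cultures that stood apart it was at 0.71 (edgeR adjusted p = 0.258).

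LPS at 16 h against LPS at 3.5 h uses no culture that entered the choice of the genes. Hcar2 did not pass the test (log2 0.34, 95% interval -0.35 to 1.03, edgeR adjusted p = 0.433), nor without LPS 16 h replicate 4 (log2 0.57, edgeR adjusted p = 0.0865). Gpr84 differed by -0.67 on the log2 scale (SE 0.215, edgeR adjusted p = 0.0233), which did not reach the fold threshold. Its adjusted p was above 0.05 in 5 of the 8 fits that left out 1 culture, at most 0.0673, and in the fit of all 6 groups (0.0766). Thus 0 of the 2 members tested were called, against 28.1% of 6987 genes, with 1 of them at an unadjusted p under 0.05, and DESeq2 also called 0 of them. In a fit without the level filter Ffar2 passed narrowly (log2 3.34, SE 1.21, edgeR adjusted p = 0.0487), where 17.2% of 24940 genes were called. That call was lost when any of 7 of the 8 cultures was left out, with adjusted p values up to 0.152 and log2 differences between 2.94 and 3.89, and was kept only without LPS 16 h replicate 4.

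The change of the LPS effect between the times was tested as an interaction term over the 4 groups. Both control groups in it also entered the choice of the genes, so the test is not independent of that choice. For Gpr84 the LPS effect was larger at 16 h than at 3.5 h by 2.34 on the log2 scale (SE 0.469, edgeR adjusted p = 0.000535), and 26.3% of 8748 genes were called in either direction. The level of Gpr84 in LPS cultures was lower at 16 h than at 3.5 h, and the control level was lower by more. For Hcar2 the difference was -0.92 (95% interval -2.38 to 0.53, edgeR adjusted p = 0.319), which did not pass. Hcar2 reached 10 TPM in this fit only in LPS cultures, with at most 7.07 TPM in a control culture. Without the 2 cultures that stood apart the differences were 2.20 for Gpr84 (edgeR adjusted p = 4.94e-05) and -0.98 for Hcar2 (edgeR adjusted p = 0.0757).

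VWF against control is the comparison that chose Hcar2, so its values are given as a description. At 3.5 h Hcar2 was 39.8-fold higher with VWF (log2 5.32, SE 0.346) and Gpr84 27.1-fold higher (log2 4.76, SE 0.245). They ranked 52nd and 69th from the highest of the 8200 genes in that comparison. Hcar2 reached 10 TPM there only in VWF cultures (at most 4.02 TPM in a control culture), so that it was ranked depended on its level with VWF. At 16 h Gpr84 was 35.8-fold higher (log2 5.16, SE 0.458) and ranked 20th of 7798 genes, and it was at log2 4.93 without Control 16 h replicate 5. At that time Gpr84 also reached 10 TPM only in VWF cultures, with at most 3.23 TPM among the controls. Hcar2 did not reach 10 TPM in any VWF or control culture at 16 h, and in a fit without that filter its log2 difference was -3.43 (SE 0.648). Without Control 16 h replicate 5 it was -3.72. The LPS and VWF comparisons share their control cultures.

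The change of the VWF effect between the times is the value that chose Hcar2. It was -8.80 on the log2 scale (SE 0.765), the lowest of 8660 genes tested. Hcar2 reached the filter there only through VWF cultures at 3.5 h. The next in rank were Il1b, which encodes the cytokine interleukin-1β, at -7.80 (SE 0.621), the chemokine gene Ccl24 at -7.72 (SE 0.557) and the gene model Gm18194 at -7.43 (SE 2.06). For Gpr84 the same value was 0.43 (SE 0.455). Without Control 16 h replicate 5 the values were -9.08 for Hcar2 and 0.21 for Gpr84. The level of Hcar2 in VWF cultures was 182-fold lower at 16 h than at 3.5 h (log2 -7.51, SE 0.318), and that of Gpr84 was 5.88-fold lower (log2 -2.56, SE 0.274). In control cultures Gpr84 was lower at 16 h too, by 8.03-fold, and Hcar2 lay the other way.

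VWF and LPS were also set side by side at each time, with no control culture involved. The VWF cultures were used to choose Hcar2, so these values and ranks are a description. At 3.5 h Hcar2 was at a like level with both agents (log2 VWF minus LPS 0.24, SE 0.246). Gpr84 was 6.63-fold higher with VWF (log2 2.73, SE 0.155), the 19th highest of 7500 genes, and 3.02 on the log2 scale with library size in place of TMM scaling, which raised the median of all genes to 0.30. At 16 h Hcar2 was 194-fold lower with VWF than with LPS (log2 -7.60, SE 0.459), the 15th lowest of 7574 genes, and the cultures did not overlap. Hcar2 reached 10 TPM there only in LPS cultures, with at most 0.578 TPM in a VWF culture. Gpr84 was higher with VWF by 0.85 (SE 0.324), and these cultures overlapped. Without LPS 16 h replicate 4 the differences were -7.84 and 0.75.

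**Figure D2:**
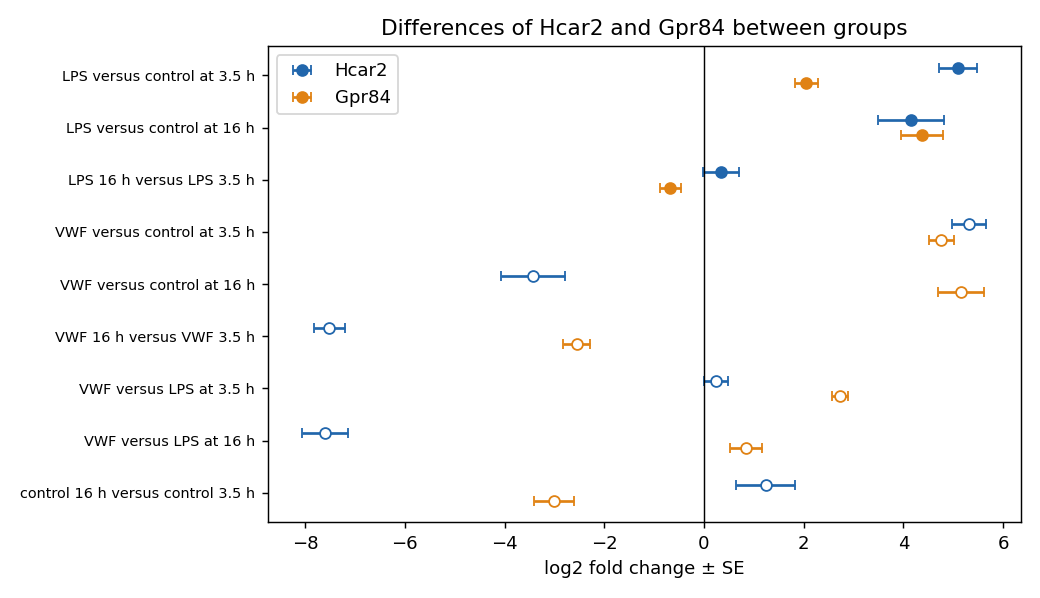
Log2 fold change with its SE of Hcar2 (blue) and Gpr84 (orange) in 9 comparisons, with filled points where the values were tested and open points where they are a description. Hcar2 lies at 5.09 and 4.15 with LPS against control at the 2 times but at 5.32 and -3.43 with VWF, while Gpr84 lies above 0 in all 4.

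The balance of the 2 receptors was compared per length, as the ratio of Gpr84 TPM to Hcar2 TPM in each culture. It was 12.3 ± 7.20 (SD, n = 5) in controls at 3.5 h, 7.12 ± 1.33 in VWF cultures and 1.31 ± 0.274 (n = 4) in LPS cultures. At 16 h it was 0.775 ± 0.568 (n = 5) in controls and 0.707 ± 0.341 (n = 4) in LPS cultures, or 0.525 ± 0.127 (n = 4) and 0.612 ± 0.345 (n = 3) without the cultures that stood apart. In VWF cultures at 16 h it lay between 61.1 and 684, above every other culture. Hcar2, in the denominator, had 4 to 21 reads there. Over all 28 cultures the log2 CPM of the 2 genes correlated at r = 0.445 (Pearson) and rho = 0.374 (Spearman), over points that share groups and controls.

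**Figure D3:**
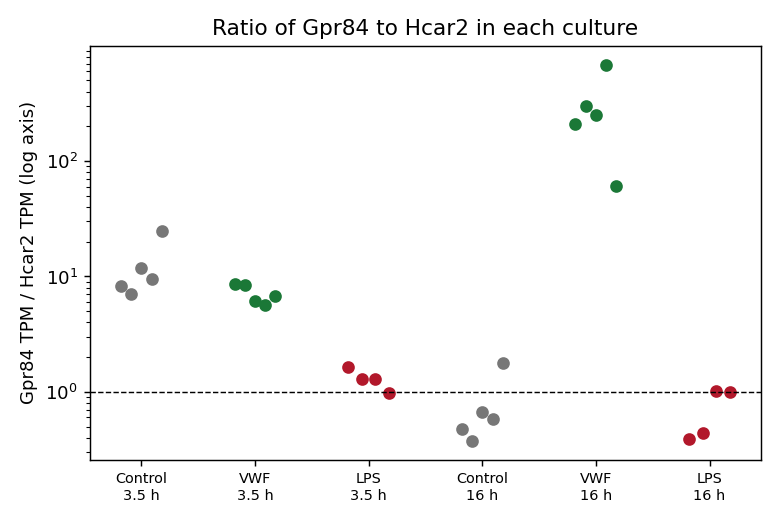
Ratio of Gpr84 TPM to Hcar2 TPM in each culture (log axis), with a point per culture and a dashed line at equal levels. The VWF cultures at 16 h lie between 61.1 and 684, and the LPS cultures at 16 h between 0.389 and 1.01.

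The genes whose log2 CPM followed Hcar2 most closely over the 28 cultures were Dcun1d3 (Pearson r = 0.943), Ccrl2 (0.937), Paf1 (0.936), Lims1 (0.933) and Dusp16 (0.931). Ccrl2 encodes a chemerin-binding receptor and Dusp16 a phosphatase of MAP kinases. Like Hcar2, all 5 had their 3 highest means in VWF at 3.5 h and LPS at both times, and their lowest mean in VWF at 16 h. The genes were picked by correlation over the same cultures, so a like order of groups follows largely from the choice. Dcun1d3 means lay between 10.8 and 25.0 CPM, and Ccrl2 means between 8.56 and 544 CPM. By Spearman correlation 1 of the 5 stayed among the 5 most like genes.

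For Gpr84 the most like genes were Slc7a7 (r = 0.962), Cpd (0.941) and Vasp (0.937). Slc7a7 encodes a subunit of an amino acid transporter, Cpd a carboxypeptidase and Vasp a regulator of actin. Each had its highest mean in VWF at 3.5 h and its lowest in controls at 16 h, as Gpr84 did. Slc7a7 went from 12.7 ± 2.88 CPM in controls at 16 h (SD, n = 5) to 69.3 ± 1.61 in VWF at 3.5 h. These correlations are over cultures of 6 groups that share treatments, and are a description. The shared order of groups follows largely from the choice of these genes.

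**Figure D4:**
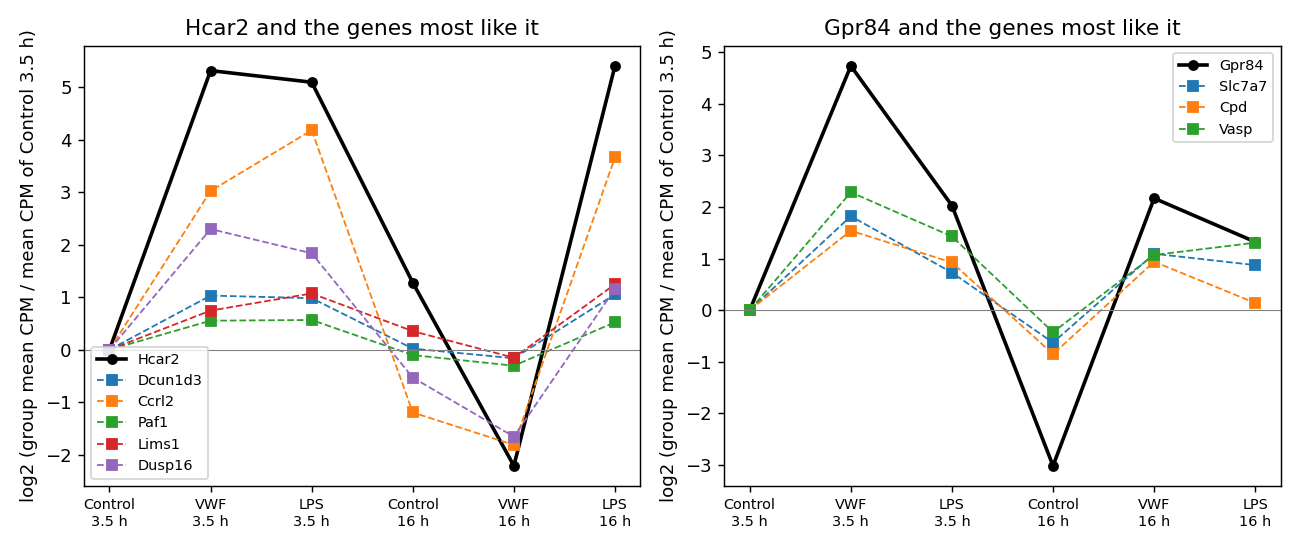
Log2 of each group's mean CPM over the mean of Control 3.5 h, for Hcar2 with its 5 most like genes (left) and Gpr84 with its 3 (right), with lines that only join the points of a gene. Hcar2 and its like genes are lowest in VWF at 16 h, Gpr84 and its like genes are lowest in controls at 16 h.

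A list of 18 other metabolite-sensing receptors was set beside the 4 genes, and 7 of them reached the filter in at least 1 comparison. With VWF at 3.5 h, 1 of 4 tested was called higher and 3 lower, and with LPS at 3.5 h 1 was called higher and 2 lower. Of all genes tested, 9.18% were called higher and 5.52% lower with VWF at 3.5 h, and 12.8% and 11.8% with LPS. Gpr132, a receptor for acids and oxidised lipids, rose with VWF from 8.42 ± 1.32 CPM (SD, n = 5) to 66.8 ± 5.88 (log2 3.02, SE 0.114, edgeR adjusted p = 5.01e-09), and with LPS to 73.5 ± 11.04 (n = 4). Cnr2, the cannabinoid receptor of immune cells, fell with VWF from 32.4 ± 6.70 to 1.73 ± 0.601 CPM (edgeR adjusted p = 1.15e-07), and with LPS to 0.141 ± 0.0160 CPM. Thus at 3.5 h Gpr132 was high where Hcar2 was high, and Cnr2 was low there. Gpr65, a proton-sensing receptor, fell with both agents at 3.5 h, from 46.1 CPM to 18.7 with VWF and 16.8 with LPS. Gpr146 fell by 2.96 on the log2 scale with VWF at 3.5 h (SE 0.142, edgeR adjusted p = 2.37e-08).

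At 16 h Gpr35, a receptor of immune and gut cells, fell by 3.06 on the log2 scale with VWF (SE 0.368, edgeR adjusted p = 0.000124) and rose with LPS by 2.10 (SE 0.398, edgeR adjusted p = 0.00153). Its means were 22.5 ± 10.8 CPM in controls (n = 5), 2.73 ± 0.431 with VWF and 93.8 ± 27.8 with LPS (n = 4). Hcar2 had the same order at 16 h, with VWF lowest and LPS highest. At 3.5 h Gpr35 was lower with both agents, where Hcar2 was high. Its means were then 3.55 ± 1.13 CPM in controls, 0.684 ± 0.268 with VWF and 0.387 ± 0.164 with LPS. Every treated culture lay below every control culture, and Gpr35 did not reach the filter at that time. Gpr132 was back between 9.64 and 12.5 CPM in all 3 groups at 16 h and was not called. Gpr31b was called higher with LPS at 16 h, but 68.8% of its 100-base stretches occur in other genes. It reached 10 TPM only in LPS cultures, with at most 0.333 TPM in a control culture at 16 h. The lactate receptor Hcar1, next to Hcar2 on chromosome 5, had at most 11 reads in a culture, and Ffar3, next to Ffar2, at most 3.

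**Figure D5:**
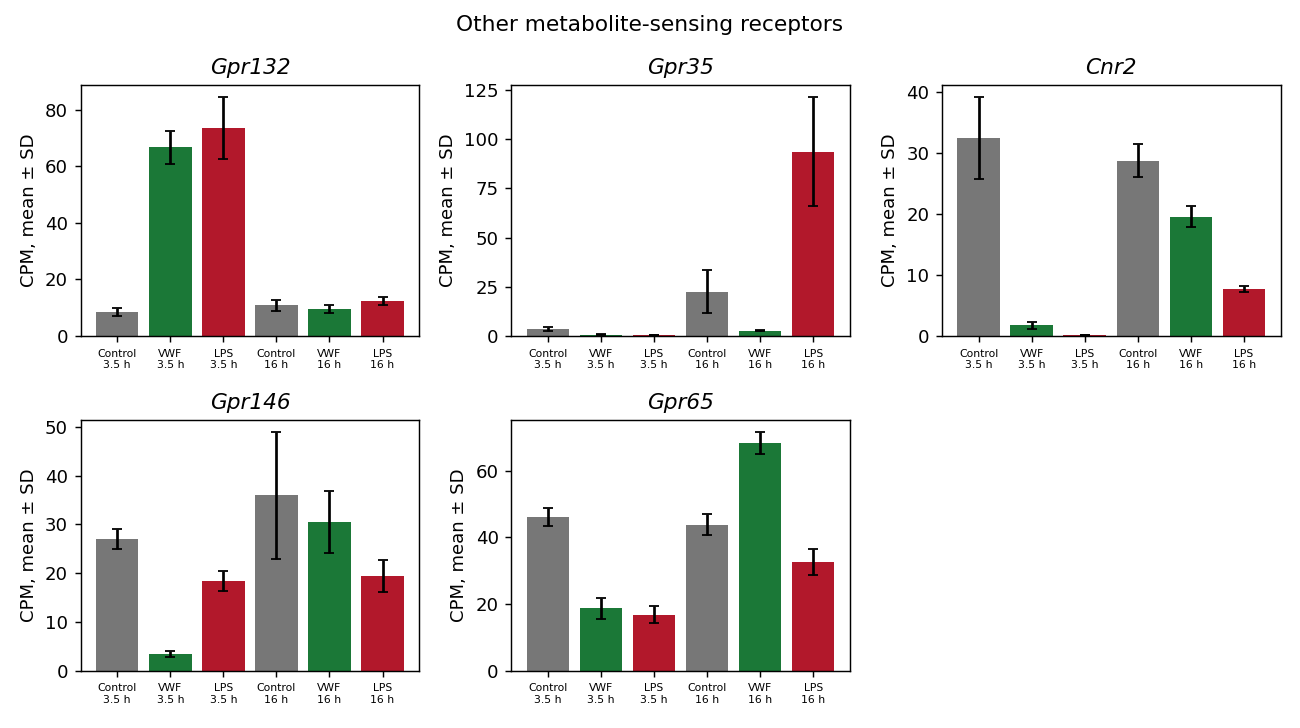
Mean CPM with its SD of 5 other metabolite-sensing receptors in the 6 groups (bars start at 0, n = 5 for control and VWF, n = 4 for LPS). Gpr132 reaches 66.8 and 73.5 CPM in the treated cultures at 3.5 h, and Gpr35 at 16 h is 2.73 CPM with VWF and 93.8 CPM with LPS.

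Genes that act downstream of these receptors were taken from fixed lists of G protein subunits, receptor desensitisation and cAMP turnover. Together with the other receptors and with the enzymes and transporters of the ligands there were 112 genes in 8 lists. Some list genes, such as Slc13a3 with VWF and Gpr31b and Gnb4 with LPS at 16 h, reached the filter only in treated cultures. The counts called higher depend in part on such genes. With VWF at 3.5 h, 6 of the 68 tested were called higher and 6 lower, against 9.18% and 5.52% of all genes tested. With VWF at 16 h, 2 of 68 were called higher and 9 lower, against 4.55% and 4.15% of all genes. With LPS at 3.5 h, 6 of 65 were called higher and 11 lower, against 12.8% and 11.8% of all genes, and with LPS at 16 h 8 of 69 and 12, against 15.3% and 12.4%. With library size in place of TMM scaling these counts were 4 and 11 with VWF at 3.5 h, 4 and 18 with LPS at 3.5 h and 4 and 22 with LPS at 16 h, since the median of all genes then moved to -0.22, -0.54 and -0.57 on the log2 scale.

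Of the genes of receptor desensitisation, which hold arrestins, receptor kinases and RGS proteins that switch G proteins off, 5 of 14 were called lower with VWF at 16 h and 5 of 14 with LPS at 16 h, where 4.15% and 12.4% of all genes tested were called lower. The list median was -0.29 with VWF and -0.50 with LPS, beside -0.03 for all genes in each. Rgs1 fell with VWF at both times, from 319 ± 43.9 to 56.3 ± 6.03 CPM at 3.5 h and from 218 ± 57.0 to 36.8 ± 6.11 CPM at 16 h. Rgs2 fell too, from 155 ± 23.0 to 19.8 ± 4.72 CPM at 3.5 h and from 480.3 ± 76.6 to 140.4 ± 23.8 CPM at 16 h. The arrestin genes Arrb1 and Arrb2 fell with LPS at 3.5 h (log2 -1.54 and -1.29, edgeR adjusted p = 4.06e-06 and 2.41e-07). At 3.5 h the list went both ways. With LPS 2 were called higher and 3 lower, against 12.8% and 11.8% of all genes. With VWF 2 were called higher and 2 lower, against 9.18% and 5.52%. Rgs14 rose with LPS (log2 1.61), Grk3 with VWF (1.40) and Rgs16 with both (1.31 and 1.01). The LPS and control groups overlapped for Rgs16, and Grk3 reached 10 TPM only with VWF.

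In the list of cAMP turnover, Pde4b, a phosphodiesterase that breaks down cAMP, rose with VWF at 3.5 h from 10.1 ± 3.76 to 153 ± 31.5 CPM (edgeR adjusted p = 2.21e-07) and with LPS to 101 ± 17.9 CPM. It was the only gene of that list called higher at 3.5 h with either agent. Pde4b did not reach the filter at 16 h, and its TPM in control cultures is not given here. Whether it was tested at 3.5 h only through treated cultures is therefore not shown. Adcy7, an adenylate cyclase, fell with LPS at 3.5 h (log2 -2.35, SE 0.292). Of the G protein subunits, Gnb4 rose with LPS at both times, by 2.61 and 1.55 on the log2 scale, and Gna15 rose with VWF at 16 h by 1.39. At 16 h Gnb4 reached the filter only in LPS cultures, so that it was tested there depended on its level with LPS.

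Among the genes of the ligands, Oxct1, which starts the use of ketone bodies, was called lower with VWF at 16 h, from 187 ± 15.3 to 86.5 ± 15.1 CPM. Slc13a3, a carrier of succinate and other dicarboxylates, rose with VWF from 5.05 ± 1.11 to 21.6 ± 1.73 CPM at 3.5 h and from 2.11 ± 0.611 to 45.3 ± 13.5 CPM at 16 h (edgeR adjusted p = 4.65e-07 and 3.76e-06), in cultures where the succinate receptor gene Sucnr1 had at most 3 reads. Slc13a3 reached 10 TPM only in VWF cultures, so that it was tested at all depended on its level with VWF. Among the genes of fatty acids, Hadh and Acadm of β-oxidation fell with LPS at 16 h (log2 -1.71 and -1.21). Of the monocarboxylate transporters tested, 3 of 5 were called higher with LPS at 16 h, against 15.3% of all genes. Slc16a3, a lactate exporter, rose from 180 ± 40.1 to 587 ± 143 CPM. Slc16a10 rose by 1.19 and Slc16a6 by 1.05 on the log2 scale, and the groups overlapped for Slc16a6. With library size in place of TMM scaling Slc16a10 was not called (log2 0.64), and the value of Slc16a6 is not given here. Slc16a6 had fallen with LPS at 3.5 h, from 22.2 ± 5.04 to 5.67 ± 1.29 CPM.

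The nearest coding genes on each side of the members were also measured. Copz1, 8367 bases from Gpr84, was at log2 0.66 with LPS at 3.5 h and Zfp385a, 3283 bases on the other side, at -0.46, both under the fold threshold. Mbnl1, 385264 bases from Sucnr1, was at log2 -0.98 with VWF and -0.98 with LPS at 16 h, also under it. Kntc1, Hcar1, Krtdap, Ffar3 and Aadac did not reach the filter in VWF or LPS against control. Gpr84 was thus 4.14-fold higher with LPS and 27.1-fold higher with VWF at 3.5 h, while its neighbours differed by less than 2-fold.

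Markers of other cells were measured beside the members. The 5 dendritic cell markers summed to between 13.6 and 19.3 CPM in VWF cultures at 3.5 h, 21.7 and 27.2 in LPS cultures at 3.5 h and 13.8 and 31.3 in LPS cultures at 16 h. They summed to at most 2.95 CPM in VWF at 16 h and in the controls, so that the list lay high in the groups where Hcar2 was high. Most of the sum was Xcr1, at 12.7, 22.6 and 20.1 CPM in those 3 groups. Clec9a was at 1.11 CPM in LPS at 16 h and 0.0562 CPM in controls at that time, and Zbtb46 at 2.91 CPM in VWF at 3.5 h and 0.988 CPM in its controls, while Flt3 had at most 8 reads and Siglech at most 20 in any culture. The part of dendritic cells in the values of Hcar2 was not tested. The 13 neutrophil markers summed to between 10.7 and 43.7 CPM over all cultures, with at most 2 reads of Ly6g, and the group ranges overlapped. With LPS at 3.5 h 1 of 3 neutrophil markers tested was called higher, and with VWF at 16 h 1 of 3. Of all genes tested, 12.8% and 4.55% were called higher in these 2 comparisons. B cell, T cell, mast cell and erythroid markers summed to at most 14.5, 0.928, 3.68 and 0.209 CPM in a culture, the highest B cell sum in Control 16 h replicate 5. B cell markers summed to between 1.25 and 3.58 CPM in LPS cultures at 16 h and 6.43 and 14.5 in controls at that time. The 1 tested was called lower, as were 12.4% of all genes tested. Macrophage markers summed to between 21940 and 27490 CPM in VWF cultures at 16 h, where Hcar2 was lowest. In controls at that time they summed to between 6615 and 17070 CPM. With VWF 4 of 9 were called higher, against 4.55% of all genes tested. Lyz2 had the highest level of the 9, at up to 18440 CPM in VWF 16 h replicate 3. Not all were highest in VWF at 16 h. Csf1r was highest in VWF 3.5 h replicate 5, Cd68 and Mertk in Control 3.5 h replicate 4 and Fcgr1 in LPS 16 h replicate 2. The part of these cells in the values of the members was not tested. Fibroblast markers summed to between 17.6 and 407 CPM, with ranges that overlapped between all groups.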

How the data were processed

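RNA was extracted from 28 BMDM cultures, and groups and replicate numbers were taken from the labels. Per the labels and methods, STAR placed 150-base read pairs on GRCm38, and the authors deposited whole-number counts per gene, without normalization or a filter. Neither the annotation nor the strand setting was stated in the sources used here. GENCODE M21 gave exon lengths for TPM. Genes reaching 10 TPM in at least 1 culture compared were tested with edgeR's quasi-likelihood test (R 4.3.3, edgeR 4.0.16, robust, TMM) on the groups compared, with Benjamini-Hochberg adjustment. Members under the filter were fitted without it. DESeq2 1.42.0, other scalings, other filters, one fit of all groups, a replicate block, a test against a fold of 2 and leaving out each culture were alternatives. Fits of some comparisons were also run on simulated counts, with the same spread for every gene and no culture that stood apart. These runs do not show how the fits handle the spread of the real cultures.

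Log2 CPM for correlations used a prior count of 2. SD measures the spread between cultures, and p values set group differences against that spread. The labels call the cultures of a group biological replicates, and their animals are not given. Between VWF and LPS at 16 h, and in no other comparison, all same-numbered cultures deviated together (r from 0.160 to 0.781, 4 pairs). No 2 cultures of a group were duplicates (chi-square per degree of freedom at least 15.8 over 52 pairs). Intervals are 1.96 SE, and the floor of 3 reads covers counting error only.

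The members and lists were chosen with earlier results of these data known. Named genes were the members, up to 3 called genes of each list and comparison with the largest fold whose groups do not overlap, chromosome neighbours, the 3 genes next to Hcar2 in the VWF interaction, and the 5 and 3 genes most like Hcar2 and Gpr84. Marker genes were named after their values were seen, and some list genes are not reported here.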

Additional observations from a re-analysis of the deposited data

Results flagged for a closer look

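In 4 of 18 groups checked, over Hcar2, Gpr84 and Ffar2, the highest or lowest culture lay further from the rest than Dixon's 95% limit allows, and chance flags about 1 in 20 groups. Gpr84 was lowest in LPS 3.5 h replicate 1, at 33.7 CPM, and in Control 16 h replicate 5, at 0.367 CPM. Ffar2 was highest in Control 16 h replicate 5, at 1.30 CPM, and in VWF 16 h replicate 4, at 0.426 CPM. The LPS effect on Gpr84 differed between the times, larger at 16 h by 2.34 on the log2 scale in the test of the difference itself. The control cultures of that test also entered the choice of the genes.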

How the results depend on the processing

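Of 426 values of Hcar2 and Gpr84 under the alternatives, 425 kept their direction, their side of the threshold or, where untested, stayed within the spread between cultures. The exception was Gpr84 in VWF against LPS at 3.5 h, at 3.02 on the log2 scale with library size alone. Leaving out 1 culture can hardly move an untested value beyond the spread between cultures. The untested values of those fits therefore say little about how far the results depend on 1 culture. The call of Ffar2 for LPS at 16 h against 3.5 h was lost with DESeq2's size factors in edgeR (log2 3.31), library size alone (3.36), the replicate block (3.05) and a test against a fold of 2 (3.34). Leaving out 1 culture gave 2.94 to 3.89. Same-numbered cultures all deviated together only between VWF and LPS at 16 h. Cultures of different numbers were not compared, so whether the numbers pair the cultures is not settled. With the replicate block Hcar2 in VWF against LPS at 16 h was at -7.79 and Gpr84 at 1.06. The block changed no call of Hcar2 or Gpr84. Without a fold threshold the list genes called higher and lower were 16 and 24 with LPS at 3.5 h, 15 and 23 with LPS at 16 h, 18 and 23 with VWF at 3.5 h and 11 and 19 with VWF at 16 h. With library size alone, 18 were lower with LPS at 3.5 h, 4 higher and 22 lower with LPS at 16 h, and 11 lower with VWF at 3.5 h. With filterByExpr, 10 were higher with LPS at 3.5 h, 15 higher with LPS at 16 h, 10 lower with VWF at 3.5 h and 6 higher with VWF at 16 h. The exclusion of both cultures that stood apart was added after the data were seen. The low counts of Ffar2 and Sucnr1 limit what could be detected for them at this depth.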
